A study of Mus musculus with 48 samples.

Results

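The genes described are those that code for the proteins of the cytoplasmic ribosome: protein-coding mouse genes whose symbols are Rpl or Rps followed by a number, plus Rplp0, Rplp1, Rplp2 and Rpsa. Kinases named after Rps6, mitochondrial ribosomal proteins, pseudogenes and Rps19bp1, which codes for a binding protein of Rps19, were left out. That gave 88 of 21883 protein-coding genes in the RefSeq table: 43 large subunit genes, 31 small subunit genes, 3 genes of the ribosomal stalk and 11 named as paralogs or retrogenes of another member. A peak belonged to them when it lay within 10 kb of the mm10 span of such a gene. Of the 15392 sites bound by the wild-type CTCF transgene, 45 did. They were read beside 9981 sites within 10 kb of other protein-coding genes.

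The study used E14Tg2a mouse embryonic stem cells of strain 129/Ola in which endogenous CTCF carries an auxin-inducible degron. Each of 10 lines carries a stable doxycycline-inducible Ctcf transgene, read with a FLAG antibody: wild type (WT) or 1 of 9 substitutions. Of these R377C and R377H replace the same residue, and the others are H455R, R448Q, Q418R, K365T, S354F, R342C and R339Q. All 10 were treated for 2 days with 500 µM indole-3-acetic acid, which removes endogenous CTCF, and 1 µg/ml doxycycline, which switches on the transgene. FLAG and SMC3 were mapped by ChIPmentation in these 10 treated lines, and an antibody to CTCF itself was used in WT cells that were untreated or given both agents. The untreated WT cells keep their endogenous CTCF, and all lines, WT included, carry the degron. The labels do not say how many clones stand for a line. Each of the 22 groups is 1 peak list pooled from 2 replicates, so there is no spread between replicates, no test is possible, and every interval below covers counting error only. FLAG lists held 3855 (H455R) to 30462 (R377C) peaks and SMC3 lists 42030 (Q418R) to 153647 (R448Q), so counts of peaks also move with how much was called. Peak lists give no expression, so the cell type could not be checked from marker genes.

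CTCF is a zinc finger protein that binds DNA at a directional sequence motif and halts cohesin, the ring complex that extrudes chromatin loops. SMC3 is a core subunit of cohesin. Ribosomal protein genes are short, spread over nearly all chromosomes and among the most highly transcribed genes of a growing cell, and their products are needed in matched amounts. RNA polymerase can push cohesin along a transcribed gene, so that cohesin collects near gene ends as well as at CTCF sites.

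Of the 68 ribosomal protein genes with an annotated promoter window (250 bases before to 50 after the start), 9 had a WT FLAG peak in it. These were Rpl5, Rpl11, Rpl26, Rpl27, Rpl36a and Rpl38 of the large subunit, Rps3a1 and Rps4x of the small subunit, and the stalk gene Rplp0. The share was 13.2%, against 2.87% of all 17491 protein-coding genes with such a window. The 250 bases before the start are shown for 3 of them that kept FLAG in all 9 mutants, Rpl5, Rpl26 and Rpl36a, from RefSeq (GRCm38.p6), 5′ to 3′ on the coding strand. Capitals in Rpl36a mark the string GGGCGCT, which was chosen after these sequences had been seen.
Rpl5: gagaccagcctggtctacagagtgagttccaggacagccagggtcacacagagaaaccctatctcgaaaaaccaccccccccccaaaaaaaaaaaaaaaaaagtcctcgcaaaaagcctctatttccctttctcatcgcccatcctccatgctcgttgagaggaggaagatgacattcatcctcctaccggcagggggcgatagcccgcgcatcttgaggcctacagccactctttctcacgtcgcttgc
Rpl26: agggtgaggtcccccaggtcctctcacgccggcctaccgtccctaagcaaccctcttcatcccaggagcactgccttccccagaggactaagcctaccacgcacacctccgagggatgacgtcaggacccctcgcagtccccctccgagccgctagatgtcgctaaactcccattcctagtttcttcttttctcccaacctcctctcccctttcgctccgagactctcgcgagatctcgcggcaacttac
Rpl36a: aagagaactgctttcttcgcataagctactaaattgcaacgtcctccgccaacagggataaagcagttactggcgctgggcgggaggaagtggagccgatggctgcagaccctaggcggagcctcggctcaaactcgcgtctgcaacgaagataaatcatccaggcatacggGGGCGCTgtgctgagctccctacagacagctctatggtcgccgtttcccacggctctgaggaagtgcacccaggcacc

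The next 3 are the bound promoters that held a CTCF-like motif, marked in capitals. It reads CCA, any 2 bases, AG, any 2 bases, GGC, and was searched on both strands. They show the same core at 3 different distances from the start, in genes that differed in how many mutants kept FLAG. The WT FLAG peak covers the marked stretch in Rplp0 and Rpl38. In Rps4x the peak covers bases -195 to -91 relative to the start, and the marked stretch lies outside it, nearer to the start.
Rplp0: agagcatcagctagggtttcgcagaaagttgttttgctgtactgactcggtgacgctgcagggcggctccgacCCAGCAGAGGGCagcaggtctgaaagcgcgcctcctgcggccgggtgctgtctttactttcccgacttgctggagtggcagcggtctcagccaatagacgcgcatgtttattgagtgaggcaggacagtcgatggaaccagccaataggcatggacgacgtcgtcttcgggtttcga
Rpl38: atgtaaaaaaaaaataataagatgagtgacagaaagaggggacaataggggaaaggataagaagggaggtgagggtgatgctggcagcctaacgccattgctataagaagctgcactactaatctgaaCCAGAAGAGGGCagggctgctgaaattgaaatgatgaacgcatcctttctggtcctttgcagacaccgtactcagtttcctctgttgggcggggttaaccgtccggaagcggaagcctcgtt
Rps4x: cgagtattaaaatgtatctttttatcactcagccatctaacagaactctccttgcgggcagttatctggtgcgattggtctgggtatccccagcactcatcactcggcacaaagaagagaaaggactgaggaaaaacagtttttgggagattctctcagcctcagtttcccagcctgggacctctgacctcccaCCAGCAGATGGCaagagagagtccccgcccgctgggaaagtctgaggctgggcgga

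These windows lie at chr5:107900278-107900527 for Rpl5, chr11:68901316-68901565 for Rpl26, chrX:134585404-134585653 for Rpl36a, chr5:115559217-115559466 for Rplp0, chr11:114668330-114668579 for Rpl38 and, on the minus strand, chrX:102189392-102189641 for Rps4x. The motif occurred in 3 of the 9 bound ribosomal protein promoters (33.3%) and in 19.9% of all 502 promoters with a WT FLAG peak, counted over the 300-base windows. None of the 59 unbound ribosomal protein promoters held it, where 2.24% of all unbound promoters did, and 3 of all 68 did (4.41%, against 2.75% of all promoters). GGGCGCT or its complement AGCGCCC occurred in 2 of the 9, Rps3a1 and Rpl36a, and in 26.3% of all bound promoters. In Rpl5 and Rpl26 neither string was found, and this says only that these letters are not in the windows.

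Within 10 kb, 38 of the 88 genes (43.2%, 95% Wilson interval 33.3 to 53.6%) had a WT FLAG peak, against 35.8% of all protein-coding genes. Ribosomal protein genes are short, with a median span of 3179 bp against 17287 bp, and other genes weighted to the same span lengths gave 25.0%. Within 1 kb, 17 of the 88 had a WT FLAG peak (19.3%, against 22.3% of all protein-coding genes, not weighted to span length). The 38 comprised 18 of the 43 large subunit genes, 15 of the 31 small subunit genes, 2 of the 3 stalk genes (Rplp0 and Rplp1) and 3 of the 11 paralogs and retrogenes (Rpl3l, Rpl22l1 and Rps27rt). A further 37 genes had FLAG peaks only in mutant lists (42.0%, against 33.8% of all genes). In 13 there was none in any FLAG list (14.8%, against 30.4% of all genes and 46.3% of length-weighted other genes): Rpl7, Rpl7a, Rpl10, Rpl17, Rpl21, Rpl24, Rpl27a, Rpl32l, Rpl39l, Rps6, Rps7, Rps18 and Rps27. FLAG was present near 6 genes in all 10 lists (6.82%, against 5.37% of all genes), among them Rpl5, Rpl26, Rpl36a and Rpl37a. In 7 genes there were 2 WT sites. The mutant lists are of different lengths, and FLAG lay near as many as 58 of the 88 genes in S354F (65.9%, against 49.4% of all protein-coding genes) and in R377C (65.9%, against 49.8%). R339Q had it near 53 (60.2%, against 38.8%), Q418R near 52 (59.1%, against 53%), R377H near 41 (46.6%, against 35.3%) and R342C near 39 (44.3%, against 35.8%). R448Q had it near 36 (40.9%, against 38%), K365T near 34 (38.6%, against 31.5%) and H455R near 8 (9.09%, against 9.53%). The CTCF antibody had a peak near 86 of the 88 genes both in untreated WT cells (97.7%, against 81% of all genes) and in treated ones (against 78.2%). For 35 of the 45 sites a ribosomal protein gene was the nearest gene, and for 10 another gene lay nearer. The sites closest to the edge of the window were at 9.92 kb (Rps27rt) and 9.77 kb (Rpl38) inside it, and at 10.31 kb (Rpl9) and 10.86 kb (Rpl23) outside it.

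The 45 sites were of modest strength. The value the authors' caller gave each peak had a median of 3.10 at these sites, against 3.66 over all WT sites, and a highest value of 7.20 against 22.7. Their median percentile within the WT list was 34.3, and 9 of the 45 fell in its lowest decile against 2 in its highest. All 45 overlapped a CTCF antibody peak both in untreated and in treated WT cells, where 91.2% and 91.1% of all WT sites did. WT SMC3 lay at 39 of them (86.7%, against 81.2% of all WT sites).

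The 12 strongest sites spanned values from 7.20 to 4.19. The highest was 5.68 kb upstream of Rps16 (7.20, chr7:28344609-28345003), a small subunit gene, and FLAG was found there in every list but H455R. Second was the Rpl5 promoter (7.10, chr5:107900405-107900599). Rpl5 binds 5S ribosomal RNA together with Rpl11. Further down were Rps24 (5.74), the Rplp0 promoter (5.72), Rpl39 (5.11), Rps21 (5.04), Rpl36 (4.78), Rps19 (4.22), the gene most often mutated in Diamond-Blackfan anaemia, and a distal site near Rps3a1 (4.19). The Rps24 site lies inside Polr3a and the Rps3a1 site inside Sh3d19. Among the named ones only the Rpl5 promoter had FLAG in H455R.

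**Figure D1:**
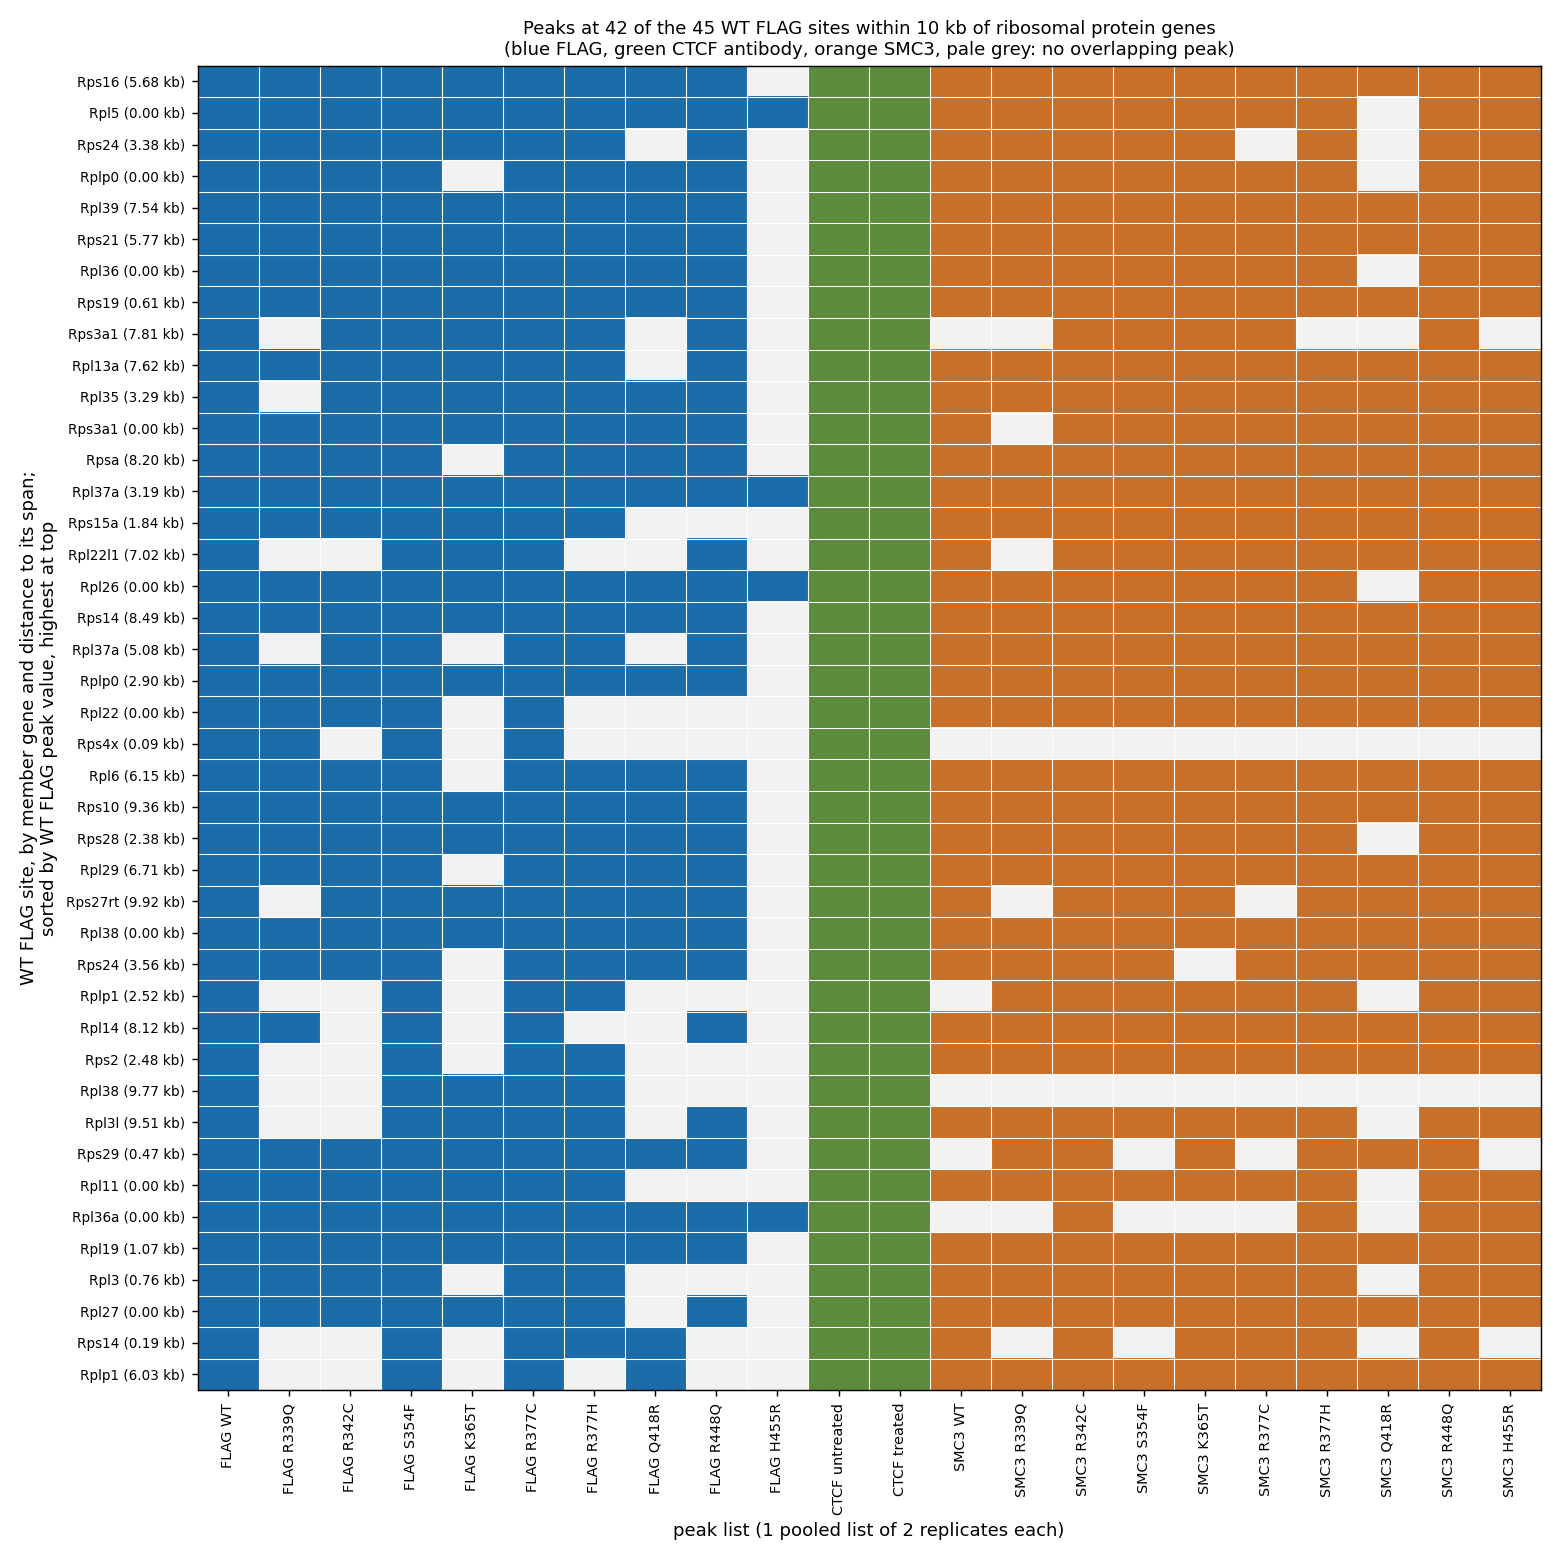
Each row is 1 of 42 of the 45 WT FLAG sites, named by its ribosomal protein gene and the distance to that gene's span in kb and sorted by WT peak value; each column is 1 peak list, and a coloured tile marks an overlapping peak (blue FLAG, green CTCF antibody, orange SMC3). The S354F and R377C columns are full, H455R keeps 4 tiles, the green columns are full, and the Rps4x promoter and distal Rpl38 rows have no orange tile.

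The mutants differed widely in how many of the 45 sites they kept. S354F and R377C kept all 45 (100%, interval 92.1 to 100%), where they kept 86.2% and 89.6% of all WT sites. R377H kept 40 (88.9%, against 71.8% of all), R342C 36 (80.0%, against 72.2%) and R448Q 35 (77.8%, against 75.2%). R339Q kept 33 (73.3%, interval 59.0 to 84.0%, against 53.1%) and K365T 31 (68.9%, interval 54.3 to 80.5%, against 52.1%). Q418R kept 29 (64.4%, against 59.2%). H455R kept 6 (13.3%, interval 6.26 to 26.2%, against 10.5%). R377C and R377H differed at 5 of the 45 sites, all kept in R377C and absent in R377H. These were the sites at Rpl14, Rpl22, Rpl22l1, Rps4x and the distal site of Rplp1. These counts rest on an overlap of at least 1 bp. With a reciprocal overlap of 50%, R377C kept 21 sites (46.7%), S354F 29 (64.4%), R339Q 18 (40.0%) and Q418R 19 (42.2%), while R377H kept 33 (73.3%), so that the order of R377C and R377H turned. Under this rule other sites, weighted to the same WT peak deciles, were kept less often in 9 of 9 mutants (by 2.53 to 25.7 points).

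Weighted to the same deciles of WT peak value, sites near other genes were kept less often in each of the 9 mutants. The sign turned in H455R with a window of 50 kb (-1.08 points), in R448Q with 1 kb (-0.57) and in R342C with lists of equal length (-3.72, on 8 sites). The difference averaged 12.6 percentage points (SD 6.86 over the 9 mutants) and ran from 3.95 in H455R to 22.5 in K365T. The standardised shares of other sites were 46.4% in K365T, 51.5% in R339Q, 70.0% in R377H and 9.39% in H455R. For these the ribosomal protein interval lay above the other share in K365T, R339Q and R377H and included it in H455R. It also lay above it in S354F and R377C, and included it in R342C (69.4%), Q418R (56.9%) and R448Q (71.3%). The 9 mutants share 1 WT list and the same 45 sites, so they are not independent. All 45 sites had a treated CTCF antibody peak, and against other sites that also had one the mean difference was 9.26 points (2.62 to 21.5). Those other sites were kept at 94.1% in S354F and 97.4% in R377C, which the ribosomal protein intervals included. In K365T (47.4%), R339Q (55.1%) and R377H (74.3%) the interval still lay above the other share. The part of the remaining difference that other features of these sites hold was not tested.

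**Figure D2:**
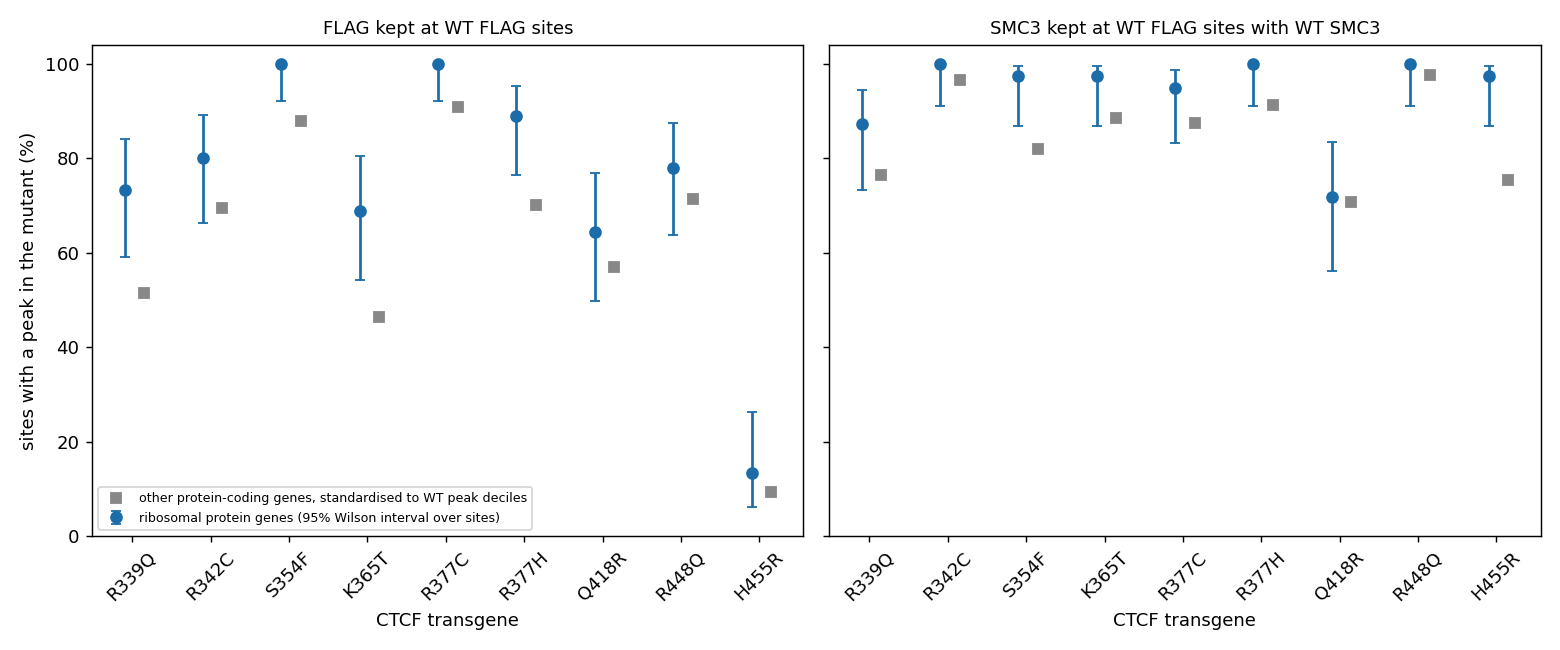
Left, share of the 45 WT FLAG sites near ribosomal protein genes with a FLAG peak in each mutant; right, share of the 39 such sites with WT SMC3 that had SMC3 in each mutant. Circles are ribosomal protein genes with 95% Wilson intervals over sites and squares are sites near other genes weighted to the same deciles of WT peak value; every circle lies above its square, by 3.95 to 22.5 points for FLAG and 1.08 to 22.0 points for SMC3.

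Sites kept in all 9 mutants numbered 5 of 45 (11.1%, against 5.04% of all WT sites). They included the promoters of Rpl5, Rpl26 and Rpl36a and a site 3.19 kb downstream of Rpl37a (chr1:72716999-72717349). Another 15 were kept in 8, which made 20 of 45 kept in at least 8 (44.4%, against 31.2%). None was kept in 2 or fewer, against 13% of all WT sites. The fewest were kept at Rps4x, at both Rplp1 sites and at Rps2, each in 3 mutants, and all 4 of these kept FLAG in S354F and R377C. Being kept did not follow strength alone among the 5: the Rpl5 site stood at percentile 91.8 of the WT list and the Rpl36a site at 5.59.

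Percentiles within each list show how these 4 sites ranked where they were kept. The Rpl5 promoter stayed between percentile 88.1 (Q418R) and 97.4 (R377C) of the 9 mutant lists. Near Rpl37a, at percentile 50.4 in WT, the site stood at 97.5 in H455R and 98.0 in R448Q, and lowest in R339Q at 56.7. Rpl36a, the weakest of the 5 in WT, ranged from percentile 33.2 (K365T) to 82.6 (Q418R) and was at 69.2 in H455R. The Rpl26 promoter was at percentile 40.1 in WT, 93.5 in R377H and 3.62 in H455R. Because lists differ in length, these ranks describe places within a list and not changes in binding.

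H455R left FLAG at 6 sites, which included the 5 kept in all 9 mutants. Of the 9 promoter sites, H455R kept 3 (33.3%), and of the 36 others 3 (8.33%). Promoter sites of other genes had 24.4% kept in H455R and their remaining sites 9.74%. R339Q kept all 9 promoter sites and 24 of the other 36 (66.7%), against 59.1% and 55.4% near other genes. With 9 promoter sites, none of these shares is precise. Counting any promoter FLAG peak, whether or not WT had it, H455R had one at 4 of 68 ribosomal protein promoters (5.88%, against 1.07% of all promoters) and S354F at 12 (17.6%, against 4.83%).

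By role, the 20 large subunit sites kept FLAG at 17 in R339Q, 14 in K365T and 4 in H455R. The 18 small subunit sites kept 14, 13 and 2 in the same mutants. The 4 stalk sites, at Rplp0 and Rplp1, kept 2, 1 and 0. The 3 sites at paralogs or retrogenes kept 0, 3 and 0. Both subunits therefore showed the same order of these 3 mutants, and the last 2 classes hold too few sites for a share.

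Other genes of protein synthesis were counted in the same way. Mitochondrial ribosomal protein genes, which build a separate ribosome, had WT FLAG near 29 of 78 (37.2%, against 35.8% of all protein-coding genes). Their 36 sites were kept more often than decile-weighted other sites in 9 of 9 mutants, by 8.34 points on average. Ribosome biogenesis genes had WT FLAG near 14 of 40 (35.0%), with 17 sites and a mean difference of 12.7 points, again positive in 9 of 9. Of 14 translation factor genes with terminal oligopyrimidine messages 3 had WT FLAG (21.4%), with 4 sites and a mean difference of 3.90 points, positive in 7 of 9. Positive mean differences were therefore also found outside the cytoplasmic ribosomal protein genes.

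FLAG peaks outside the WT list also lay near ribosomal protein genes. They made up 52 of 86 such peaks in R339Q (60.5%, against 57.4% of the whole list), 49 of 78 in Q418R (62.8%, against 70.2%), 48 of 93 in S354F (51.6%, against 45.8%) and 46 of 92 in R377C (50.0%, against 55.9%). K365T had 5 of 36 (13.9%, interval 6.08 to 28.7%, against 39%) and R448Q 9 of 44 (20.5%, interval 11.2 to 34.5%, against 40.6%). R377H had 14 of 54 (25.9%, against 33.6%), R342C 11 of 47 (23.4%, against 33%) and H455R 2 of 8 (25.0%, against 58.1%). The mean over mutants was 37.1% (SD 18.9), and 48.2% over the whole lists.

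Merged across mutants these were 133 sites, of which 87 occurred in 1 mutant, 39 in 2 to 4 and 7 in 5 or more, against 74.5%, 22% and 3.44% of all 57017 such sites. Among the 133, 115 overlapped a CTCF antibody peak of WT cells (86.5%, against 61.8% of all such sites). The 7 most shared included those near Rpl12 (7 mutants) and Rpl10a, Rpl26, Rpl23a, Rps25 and Rpl37rt (6 each). Each of the 7 had a CTCF antibody peak, as did 93.6% of all sites found in 5 or more mutants. At Rpl12, for a site 6.56 kb upstream inside Lrsam1 (chr2:32953985-32955150), FLAG was absent in WT, K365T and H455R, and the treated CTCF antibody peak stood at percentile 89.3 of its list. None of the 7 was found in H455R, whose FLAG list is the shortest (3855 peaks), and the share over all such sites was not counted. Of the 87 sites seen in a single mutant, 34 came from Q418R and 26 from R339Q, with 11 each in S354F and R377C. Of all 42498 single-mutant sites, 16805 came from Q418R, 5876 from R339Q, 3141 from S354F and 6882 from R377C. Of the 34 Q418R sites 24 overlapped a CTCF antibody peak (70.6%, against 47.7% of all sites seen in Q418R alone), and of the 26 R339Q sites 18 did (69.2%, against 59.7%).

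With the CTCF antibody, 727 peaks of untreated WT cells lay near ribosomal protein genes and 413 overlapped a peak of treated WT cells (56.8%, interval 53.2 to 60.4%), against 56.9% of all untreated peaks. Other genes' peaks weighted to the same deciles gave 56.5%, within that interval. Among the upper 5 deciles of the untreated list the share was 89.3% (87.3% near other genes), and among the lower 5 it was 22.6% (23.0% near other genes). The 5 strongest untreated peaks without a treated one were near Rpl30, Rps4x, Rpl26, Rpl3l and Rpl13. Their percentiles in the untreated list ran from 71.5 (Rpl30) to 67.9 (Rpl13), and none had FLAG in a mutant list.

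SMC3 was kept at most WT FLAG sites near ribosomal protein genes, also where FLAG itself was not. Of the 39 sites with WT SMC3, H455R kept SMC3 at 38 (97.4%, interval 86.8 to 99.5%), against 77.9% of all such sites and 75.4% of decile-weighted other sites. R342C, R377H and R448Q kept all 39 (96.6%, 91.3% and 97.9% of all sites), and S354F and K365T 38 (97.4%, against 81.4% and 89.9%). R377C kept 37 (94.9%, against 87.3%), R339Q 34 (87.2%, against 78%) and Q418R 28 (71.8%, interval 56.2 to 83.5%, against 74.1%). The mean difference from other sites was 8.93 points (SD 6.64), from 1.08 in Q418R to 22.0 in H455R. SMC3 peak names carry tags whose meaning is not stated, b1 in WT and 5 mutants, b2 in R339Q, b3 in Q418R and both b1 and b2 in S354F and R377C. Within the 5 mutants tagged b1 alone the mean difference was 9.14 points. With the SMC3 lists alone cut to equal length it was 11.6 points, on 37 sites and positive in 9 of 9 mutants. With the FLAG lists cut as well it was 0.641 points on 8 sites, positive in 7 of 9. With a reciprocal overlap of 50%, which left 19 sites with WT SMC3, R448Q kept SMC3 at 31.6%, Q418R at 42.1%, R339Q at 47.4%, and R377H and S354F at 57.9% each. The difference was then positive in 5 of 9 mutants and negative in R448Q (-9.84 points), R377H (-8.01), Q418R (-3.52) and R339Q (-0.343). In Q418R it was also negative with a window of 1 kb (-29.3 points, on 14 sites, of which 42.9% kept SMC3). With the upper 50% of each list the difference was positive in 6 of 9 mutants and negative in Q418R, R339Q and R377C. No direction can therefore be given for Q418R, and in R339Q, R377C, R377H and R448Q the direction depended on the setting.

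At 24 of the 45 sites SMC3 was present in all 10 lists (53.3%, against 45.6% of all WT sites). The Rps16 site was at or above percentile 97.9 of the SMC3 list in all 10, H455R included (98.7), although H455R had no FLAG there. At 2 sites SMC3 was in no list (4.44%, against 8.72% of all WT sites): the Rps4x promoter (chrX:102189482-102189586) and a site 9.77 kb upstream of Rpl38 (chr11:114657865-114658047). The Rpl36a promoter, which kept FLAG in all 9 mutants, had no SMC3 in WT and had it in R342C, R377H, R448Q and H455R.

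SMC3 lay past the ends of most ribosomal protein genes. Of the 68 with a known strand, 60 had a WT SMC3 peak within 5 kb past the annotated end (88.2%, interval 78.5 to 93.9%), against 27.9% of all genes and 26.4% of other genes weighted to the same span lengths. Within 5 kb before the start 33 of the 68 had one (48.5%, interval 37.1 to 60.2%), against 29.8% of all genes and 29.8% of length-weighted other genes. In 500 bp bins, 57.4% of ribosomal protein genes had WT SMC3 at 1500 to 2000 bp past the end, against 8.31% of other genes. The share was 55.9% at 3000 to 3500 bp past the end, 27.9% at 4500 to 5000 bp and 10.3% in the last bin before 10 kb. WT SMC3 was also raised at the start, at 33.8% and 35.3% of ribosomal protein genes in the bins on either side, against 20.7% and 19.0% of other genes. WT FLAG peaks were most frequent there: 13.2% of ribosomal protein genes had one in the 500 bp before the start, against 2.94% of other genes. In the bins past the end the share with WT FLAG stayed at or below 4.41%, and that of other genes at or below 1.19%.

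**Figure D3:**
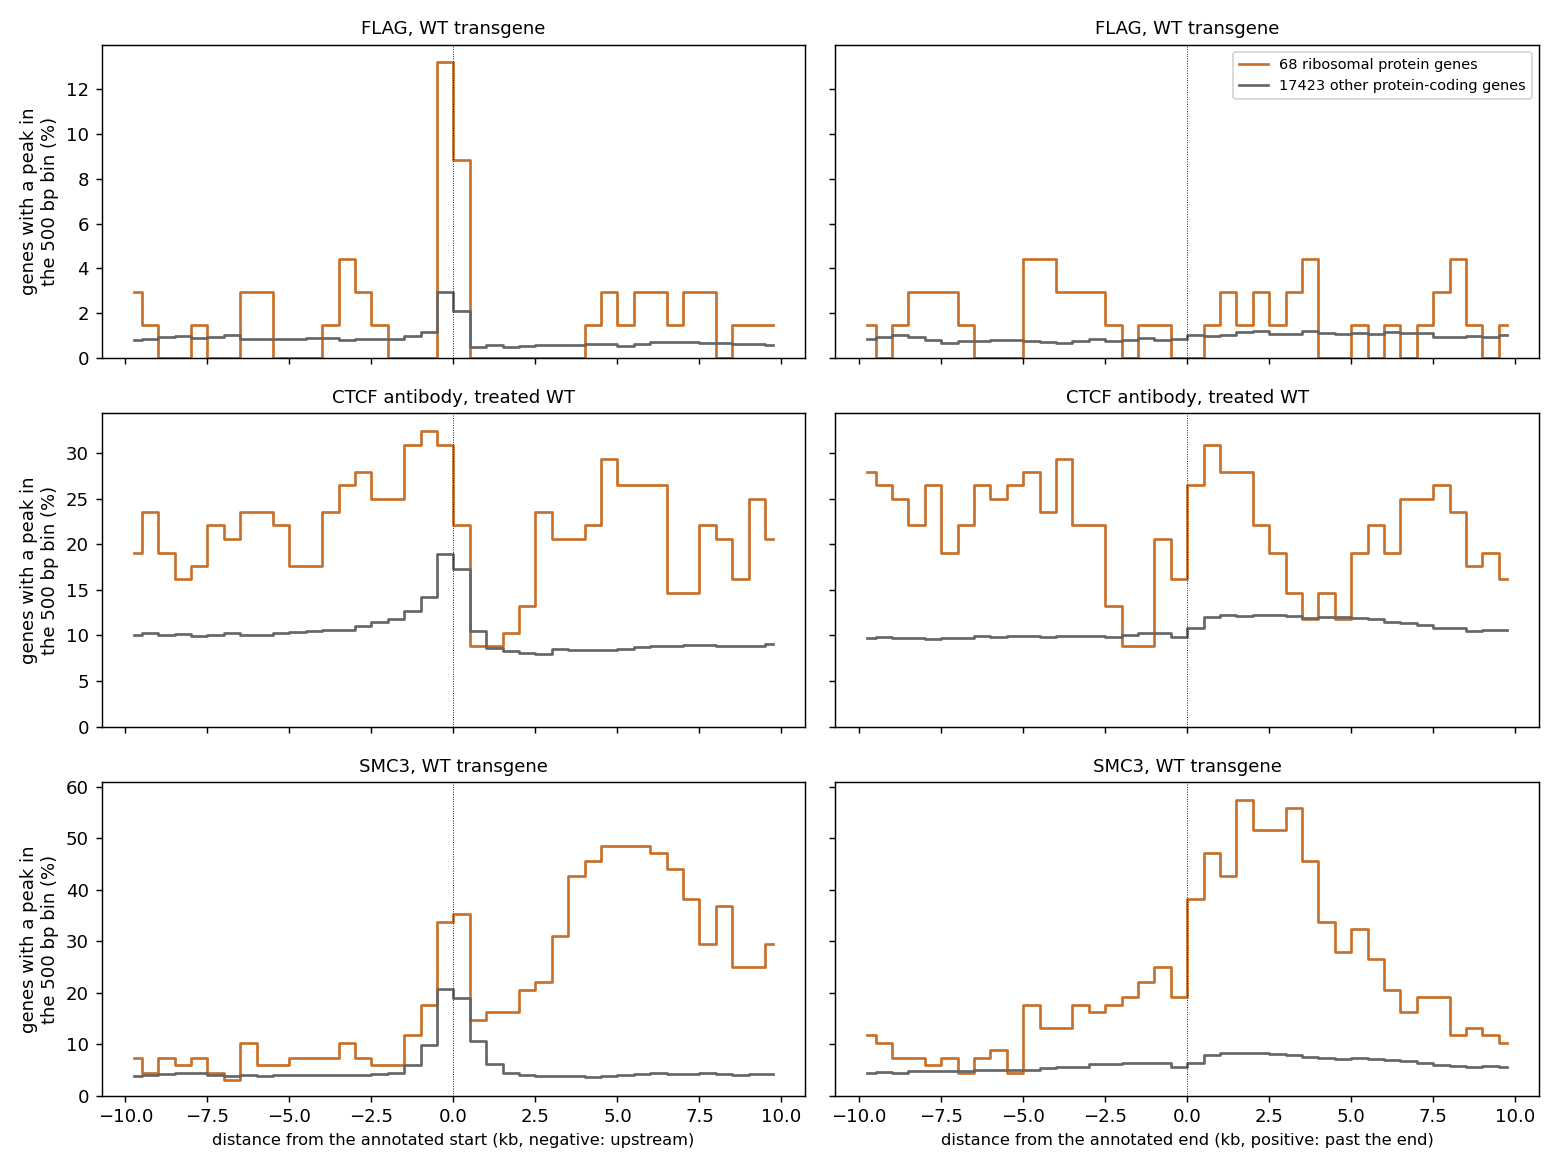
Share of genes with a peak in each 500 bp bin around the annotated start (left) and end (right), for WT FLAG, the CTCF antibody in treated WT and WT SMC3; orange lines are 68 ribosomal protein genes and grey lines 17423 other protein-coding genes. WT FLAG rises at the start (13.2% in the bin before it), and WT SMC3 rises past the end (57.4% at 1.5 to 2 kb) while other genes stay at or below 8.36% there.

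SMC3 past the end was common in each mutant. It was present at 65 of 68 genes in R342C and R448Q (95.6%, against 36.1% and 41.1% of all genes) and at 64 in H455R (94.1%, against 33.2%). There were 63 in R339Q, R377C and R377H (92.6%, against 32.9%, 34.1% and 37.9%), 61 in S354F (89.7%, against 30.9%) and 56 in K365T (82.4%, against 30.7%). Q418R, with the shortest list, had 51 (75.0%, interval 63.6 to 83.8%, against 18.4%). All 10 lists had a peak past the end in 49 of 68 genes (72.1%, against 12% of all genes). Rpl32l, classed here as a paralog or retrogene, was the single member with none in any list, and Rpl36a had one in a single list.

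Before the start the share varied more. SMC3 was present there at 60 of 68 genes in R448Q (88.2%, against 55.5% of all genes), at 55 in R377H (80.9%, against 45.3%) and at 48 in H455R (70.6%, against 38%). R342C and K365T had 47 each (69.1%, against 43.3% and 36.5%), R339Q and R377C 42 each (61.8%, against 29.2% and 35.3%), S354F 37 (54.4%, against 29.9%) and Q418R 20 (29.4%, against 14.4%). In R448Q the bins on either side of the start, at 85.3% and 86.8% of the genes, exceeded the highest bin past the end, at 80.9%.

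**Figure D4:**
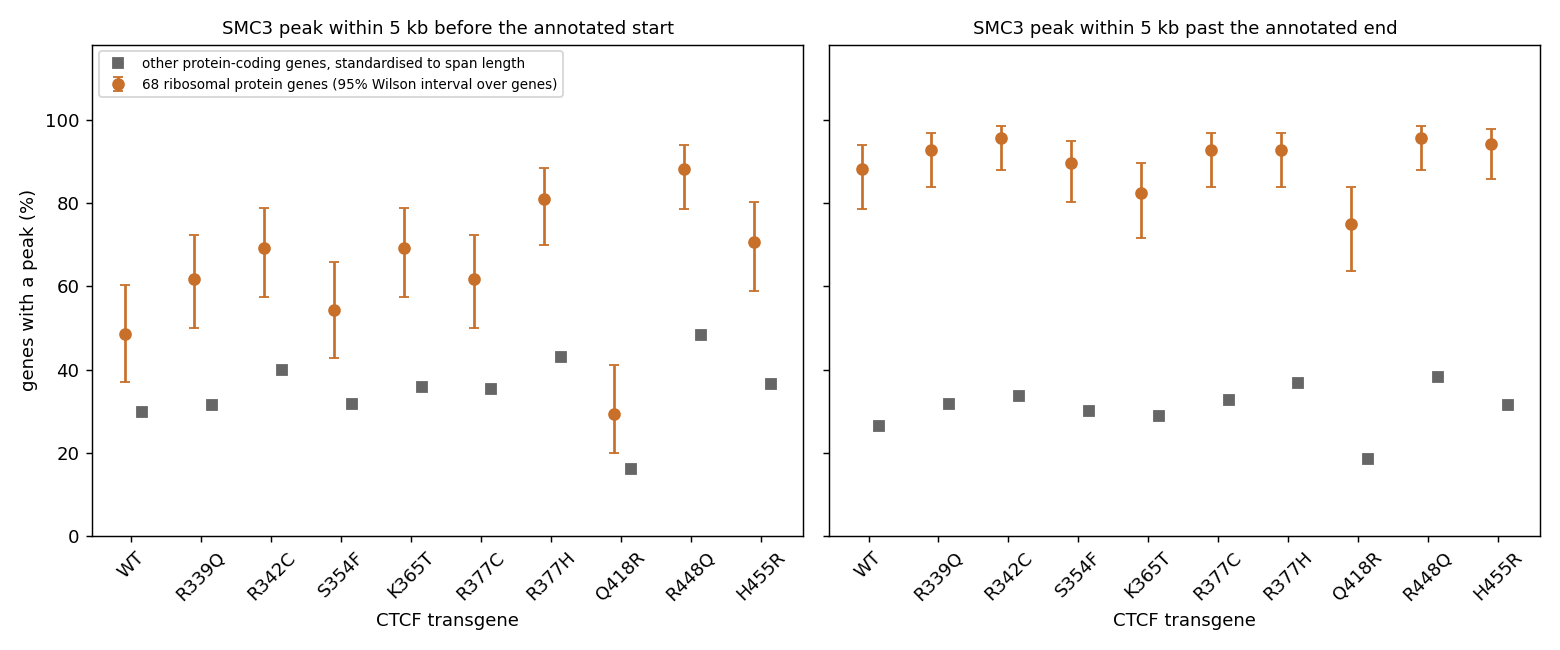
Share of genes with an SMC3 peak within 5 kb before the annotated start (left) and within 5 kb past the annotated end (right), by CTCF transgene; circles are 68 ribosomal protein genes with 95% Wilson intervals over genes and squares other genes weighted to the same span lengths. Past the end the circles lie between 75.0% and 95.6% in all 10 lists and the squares between 18.4% and 38.2%.

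Rpl12, whose product is a base protein of the stalk, had the most SMC3 past its end. Peaks covered 3599 bp of the 5000 bp flank in WT, 1618 bp in Q418R and 4542 bp in R448Q, with the other 7 mutants between 3101 bp (K365T) and 4384 bp (R339Q). Rps28 had 3250 bp in WT, 1921 bp in Q418R, 4359 bp in R448Q and 4163 bp in H455R. Rpl31 had 2800 bp in WT, 2241 bp in Q418R and 4500 bp in R448Q, with no WT FLAG or CTCF antibody peak in that flank. In Rpl12, Rps28 and Rpl31 Q418R was lowest and R448Q highest. Rpl27a and Rpl7a lay between Rpl12 and Rps28 in mean cover of the flank, and Q418R was lowest there too. R448Q was not highest in them: Rpl27a had 4659 bp in R377C against 4443 bp in R448Q. Rpl7a had 4568 bp in R342C against 3592 bp in R448Q. Over the 68 genes the mean was 1224.9 bp in WT, 551.9 bp in Q418R, 1909.8 bp in H455R and 2509.4 bp in R448Q.

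CTCF antibody peaks were common in the same flanks. In treated WT cells 44 of 68 genes had one within 5 kb past the end (64.7%, against 34.5% of all genes), and 45 within 5 kb before the start (66.2%, against 37.4%). Counting only WT SMC3 peaks that overlapped no WT FLAG and no CTCF antibody peak, 51 of 68 genes had one past the end (75.0%, interval 63.6 to 83.8%, against 16.2% of all genes) and 20 before the start (29.4%, against 16.3%). In 15 genes the flank held no WT FLAG or CTCF antibody peak at all, and 12 of them had WT SMC3 there, against 11% of all genes with such a flank. Those with it in all 10 lists were Rpl31, Rpl9, Rps3a1, Rps6, Rps7, Rps13 and Rps21. A neighbouring protein-coding gene within the flank did not separate the genes: WT SMC3 was past the end of 27 of 31 genes with a free flank (87.1%, against 20.4% of all such genes) and of 33 of 37 with a neighbour (89.2%, against 41.4%). Transcript levels were not measured here, and their part in this layout was not tested.

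SMC3 also covered more of the gene bodies. Within 10 kb, 84 of 88 genes had a WT SMC3 peak (95.5%, against 66.2% of all genes), and 77 had one in all 10 lists (87.5%, against 44.5%). Within 1 kb 69 had one in WT (78.4%, interval 68.7 to 85.7%, against 54.6% of all and 37.9% of length-weighted other genes). On the span itself WT SMC3 peaks covered 8.63% on average, against 4.06% for length-weighted other genes. The cover was 35.0% in R448Q (other genes 11.3%), 23.4% in R377H (8.91%), 22.4% in R377C (7.47%), 21.5% in R339Q (6.59%), 17.9% in H455R (6.49%), 15.6% in S354F (5.67%), 15.0% in R342C (6.55%), 11.7% in K365T (5.27%) and 2.52% in Q418R (1.73%). The ratio to other genes was 2.13 in WT, lowest in Q418R at 1.46 and highest in R339Q at 3.26. WT SMC3 peaks had a median width of 222 bp, R448Q peaks 280 bp and Q418R peaks 167 bp, and the longest list, R448Q, and the shortest, Q418R, had the highest and the lowest cover. In between the order differed: R342C, with 112747 peaks, had less cover than R339Q, with 94978. The part of list length and peak width in the cover was not tested. Compared with WT, 82 genes had more of the span covered in R448Q (93.2%, against 64% of all genes) and none less (against 5.58%). In Q418R 8 had more (9.09%, against 10.4%) and 49 less (55.7%, against 43.3%).

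**Figure D5:**
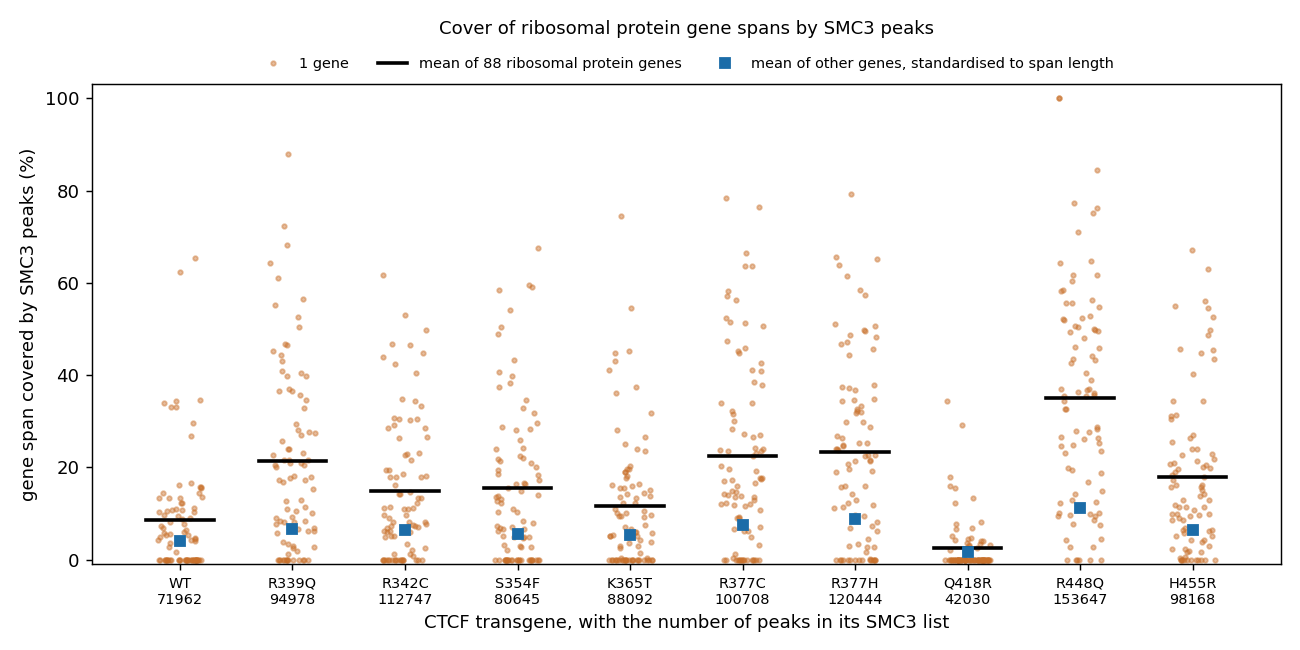
Percent of the annotated span covered by SMC3 peaks for each of 88 ribosomal protein genes (points, with seeded sideways scatter), by CTCF transgene, with the number of peaks in each SMC3 list below its name; black bars are means and squares the mean of other genes weighted to the same span lengths. The bars lie above the squares in all 10 lists, from 2.52% against 1.73% in Q418R to 35.0% against 11.3% in R448Q.

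Rpl31 and Rpl3 were among the genes with the highest mean cover. Rpl31, with no CTCF or FLAG peak on the span in any list, had 34.7% of its span covered in WT, 34.3% in Q418R, 100% in R448Q and 48.9 to 74.5% in the other 7 mutants. Rpl3, which has CTCF antibody peaks on its span, had 34.0% in WT, 17.9% in Q418R, 64.3% in R448Q and 40.5 to 66.5% in the others. Rps12, also without CTCF on the span, had 13.4% in WT, 0 in Q418R, 5.04% in K365T and 77.4% in R448Q. Rpl28, without CTCF on the span as well, had a higher mean cover than Rps12 (43.7% against 38.2%). Its WT cover of 65.3% exceeded that of every mutant except R448Q (75.2%). In all, 38 members had no CTCF antibody and no FLAG peak on the span in any list. Of these, 23 carried a WT SMC3 peak on it (60.5%, against 11.3% of all 6419 protein-coding genes of that kind and 11.0% of length-weighted other genes).

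SMC3 peaks away from CTCF were kept more often near ribosomal protein genes. Of 568 WT SMC3 peaks within 10 kb, 309 overlapped no WT FLAG and no CTCF antibody peak (54.4%, against 51.9% of all WT SMC3 peaks). R339Q kept 236 of these 309 (76.4%, against 39.6% of all such peaks), R377C 255 (82.5%, against 51.6%), S354F 217 (70.2%, against 40.9%) and R377H 259 (83.8%, against 63%). R448Q kept 273 (88.3%, against 70.1%), H455R 240 (77.7%, against 57.2%), R342C 248 (80.3%, against 64.5%), K365T 182 (58.9%, against 47.2%) and Q418R 108 (35.0%, against 14.5%). Weighted to the same deciles of WT SMC3 value, other genes' peaks gave 45.5% in R339Q, 62.6% in H455R and 17.7% in Q418R. At the 259 WT SMC3 peaks with CTCF, R339Q kept 81.9% (62.2% of all such peaks), H455R 81.1% (63.4%) and Q418R 53.3% (45.2%). The 5 strongest WT SMC3 peaks away from CTCF lay near Rpl17, at the Rps9 promoter, and near Rpl37, Rpl37rt and Rpl35a, at percentiles 93.5 to 85.8 of the WT SMC3 list. The peak near Rpl17 lies within BC031181. At promoter windows SMC3 was found in 23 of 68 genes in WT (33.8%, against 20.3% of all), in 58 in R448Q (85.3%, against 50.2%) and in 10 in Q418R (14.7%, against 5.52%).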

How the data were processed

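ChIPmentation peak lists of 22 groups were used, 1 per group, and per the labels each was pooled by the authors over 2 replicates. The submitters' processing notes name Trim Galore, Bowtie2, MACS2 and deepTools, with build mm10; versions and settings were not given in the sources used here. The deposited lists hold a score in column 5, whose measure is not stated, and it was compared only within a list. Intervals repeated for several summits were merged with the highest score. FLAG in untreated WT cells and IgG were not analysed here. Groups came from the labels. Values of some single genes that the naming rule picked are not reported here.

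Peaks overlapping by at least 1 bp counted as shared. Gene spans, strands and promoters came from RefSeq GRCm38.p6; 20 of the 88 genes had no promoter entry and were left out of strand-based counts. Other sites were standardised over 10 deciles of score, and other genes over 10 deciles of span length. Named sites followed a fixed rule: the 12 strongest, those kept in all mutants, those most shared or most lost, and the strongest peaks without CTCF. Genes named for SMC3 cover were among those with the highest mean, and the flank past gene ends was studied after the profile had been seen. Members and lists were chosen with earlier results of these data known. Shares have 95% Wilson intervals. Depth per sample is unknown from peak lists, and no test was run. Overlaps were checked against bedtools 2.31.1 and tested on simulated data; Python 3.11.15, pandas 2.3.3 and scipy 1.17.1 were used. Alternatives were windows of 1 and 50 kb, an overlap of 50% in both directions, equal list lengths, only the stronger 50% of each list, and changes of membership and of the comparison sites.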

Additional observations from a re-analysis of the deposited data

How the results depend on the processing

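No paired analysis was possible because each list pools both replicates, and for the same reason leaving out a replicate was not possible. Neither mean difference nor the span cover difference changed sign under any alternative run, but differences of single mutants did. Leaving out paralogs, adding Rps19bp1 and using only the mutants tagged b1 moved no value beyond its interval or spread. Depth is unknown from peak lists, so what it limits could not be measured. The alternatives for the flank past gene ends, the nearest-gene rule, the differences, SMC3 lists alone at equal length and the span cover were chosen after seeing the data.

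The difference in FLAG kept turned in H455R with 50 kb (-1.08 points), R448Q with 1 kb (-0.57) and R342C with equal list lengths (-3.72). The difference in SMC3 kept turned in Q418R with 1 kb (-29.3), equal list lengths (-26.8), reciprocal overlap (-3.52) and the upper 50% (-15.8). It turned in R339Q with reciprocal overlap (-0.343) and the upper 50% (-5.74), in R377C with equal list lengths (-2.9) and the upper 50% (-2.02), and with reciprocal overlap in R377H (-8.01) and R448Q (-9.84).

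With a 1 kb window, genes with WT FLAG fell to 19.3%, against 22.3% of all genes, so the excess over all genes at 10 kb was not seen. Sites kept in R339Q were 88.2%, and SMC3 was kept at 100% of sites in K365T and R377C and 42.9% in Q418R. CTCF antibody peaks with a treated peak were 64.3%, and FLAG peaks outside the WT list averaged 30.5%. With 50 kb these were 80.7% of genes with WT FLAG, 86.4% SMC3 kept in H455R and 53.1% of CTCF antibody peaks. The share of all genes with WT FLAG was not counted at 50 kb. Sites nearest to a member kept SMC3 at 100% in R377C.

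Equal list lengths (3855 FLAG, 42030 SMC3 and 116973 CTCF antibody peaks) left 9.09% of genes with WT FLAG, on 8 sites. FLAG was then kept at 50.0% in R342C and K365T, 37.5% in Q418R and 87.5% in S354F, R377C and R448Q, with a mean difference of 21.8 points. SMC3 was kept at 100% in K365T and H455R with a mean difference of 0.641 points. WT SMC3 within 1 kb was at 65.9% of genes and past the end at 75.0%, the difference in span cover was 2.85 points, CTCF antibody peaks with a treated peak were 75.3% and FLAG peaks outside WT 52.4%.

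With the upper 50% of each list, the values were 18.2% of genes with WT FLAG, 58.8% of sites kept in R339Q, 76.5% in R377H, 100% SMC3 kept in K365T with a mean difference of 1.80 points, 61.4% of genes with WT SMC3 within 1 kb, 73.5% past the end, 2.35 points of span cover, 69.0% of CTCF antibody peaks and 51.4% of FLAG peaks outside WT. A reciprocal overlap of 50% gave FLAG kept at 40.0% in R339Q, 64.4% in S354F, 46.7% in R377C, 73.3% in R377H and 42.2% in Q418R. SMC3 was then kept at 47.4% in R339Q, 78.9% in R342C and R377C, 57.9% in S354F and R377H, 68.4% in K365T, 42.1% in Q418R and 31.6% in R448Q, with 34.8% of CTCF antibody peaks and 52.4% of FLAG peaks outside WT. Past gene ends, a 2 kb flank gave 75.0% and SMC3 peaks away from CTCF 75.0%, against 16.0% of other genes under each. The cause of these changes was not tested.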
